A study of Mus musculus with 2 samples.

Results

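Distal intergenic H3K27me3 peaks are called peaks that lie far from any protein-coding gene, and whether each is marked chromatin was not tested. They were chosen by their position and called width in the deposited peak list of mouse sciatic nerve, as peaks of at most 5000 bp that overlap no protein-coding gene, lie more than 50 kb from every protein-coding gene end and lie more than 2 kb from every long non-coding RNA (lncRNA) gene end. The rule found 503 such peaks among 6018 in all (8.36%). The study made 1 H3K27me3 chromatin immunoprecipitation (ChIP) library and 1 input library from sciatic nerve. The mice were C57/BL6 males, 8 weeks old. Whole nerve was fixed in 1% formaldehyde, and no genotype or treatment is named in the labels. Input values were not analysed here. There are no replicates, so the spread between animals is unknown, no p-values were computed, and every interval given covers counting error only.

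H3K27me3 is trimethylation of lysine 27 of histone H3. It is written by the Polycomb repressive complex that contains Ezh2 or Ezh1 and accompanies silencing of genes that act in other lineages or at other stages. In differentiated tissues the mark is best known from promoters of developmental regulators. Such regulators often sit beside gene deserts, long stretches without protein-coding genes that hold distant enhancers. Sciatic nerve contains Schwann cells, fibroblasts, vessel and immune cells, and axons whose nuclei lie elsewhere, so a peak from whole nerve cannot be given to one of these cell types.

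The label follows from the rule itself for protein-coding genes, and the nearest selected peak lay 50.0 kb from a gene. It holds less well for transcription units of other kinds, since 99 of the 503 peaks (19.7%, exact 95% Clopper-Pearson interval 16.3 to 23.4) lay inside the body of an lncRNA gene, away from its ends. Just inside the distance limit lay peaks at 50.0 kb from Zfp64 (78 reads), 50.2 kb from Clint1 (11 reads) and 50.3 kb from Uncx (82 reads). Just outside it lay peaks at 49.9 kb from Grik3, 49.7 kb from Bub3 and 49.7 kb from Tmem33, each with 10 reads. The widest selected peak spanned 4592 bp, and 1 wider peak (5484 bp, 113 reads, nearest gene Spaca7) met the distance limits and missed the width limit.

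A few distal peaks lay at microRNA genes, and their mature products are printed to show which microRNAs these were. They are shown 5′ to 3′ with the seed, bases 2 to 8, in capitals. Sequences are from RefSeq, assembly GRCm38.p6. Mir129-2 and, on the opposite strand, Mir129b lay inside a distal peak, a distal peak lay 508 bases from Mir137, and another lay 4660 bases from Mir9-2.
mmu-miR-129-5p: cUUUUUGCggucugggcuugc
mmu-miR-129-2-3p: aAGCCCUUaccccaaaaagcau
mmu-miR-129b-5p: gCUUUUUGggguaagggcuucc
mmu-miR-129b-3p: cAAGCCCAgaccgcaaaaagauu
mmu-miR-137-5p: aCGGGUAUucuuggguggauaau
mmu-miR-137-3p: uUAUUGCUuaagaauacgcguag
mmu-miR-9-5p: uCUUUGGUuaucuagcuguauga
mmu-miR-9-3p: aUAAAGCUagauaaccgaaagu
No seed is shared among these 8 sequences. The miR-9-5p seed, CUUUGGU, occurs in 3 mature entries of the RefSeq table from 3 genes, and the miR-129-5p seed, UUUUUGC, in 2 entries from 2 genes.

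The most abundant reads at a microRNA locus were at Mir129-2 on chromosome 2. The gene (94241364 to 94241453, mm10) was covered by a peak of 4394 bp holding 111 reads (exact 95% Poisson interval 91.3 to 133.7), the distal peak with the most reads outside the dense class described below. It headed a run of 5 distal peaks with 111, 25, 12, 10 and 10 reads, all within 10 kb of the microRNA and inside the lncRNA gene Mir670hg. Mir124a-2 on chromosome 3 was covered by a peak of 2031 bp holding 48 reads (35.4 to 63.6), 152.6 kb from the nearest protein-coding gene, Cypt12. The same peak covered the microRNA gene Gm51272. miR-124, miR-9, miR-129 and miR-137 are known as microRNAs enriched in neurons or the brain.

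At the other microRNA loci the peak lay beside the gene. The peak near Mir137 had 24 reads over 1118 bp and lay 126.6 kb from Dpyd. Within 10 kb of Mir9-2 on chromosome 13 were 3 distal peaks with 23, 13 and 10 reads, and the opposite-strand gene Gm51268 shared them. Mir124a-1 and Mir3078 on chromosome 14 had a distal peak of 22 reads within 10 kb, and another peak, not among the distal ones, covered both genes. Mir101c lay 1046 bases from a peak of 11 reads at the start of chromosome 9. Of the miR-9 genes, Mir9-1 and Mir9-3 also lay under peaks, but at 27.2 and 37.4 kb from a protein-coding gene, so those peaks were outside the rule. The peak closest to Mir129-1 was 37.3 kb away.

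Of 174 microRNA genes more than 50 kb from protein-coding genes, 10 had a distal peak within 10 kb (5.75%, 2.79 to 10.3). The 12 distal peaks concerned were 2.39% of all distal peaks (1.24 to 4.13), while 0.213% of the distal space lay within 10 kb of such a microRNA gene. Here and below, the distal space is the 954.0 Mb of chromosome in which a peak would meet the distance limits. It was not screened for sequence on which reads cannot be placed. The 10 kb limit was chosen after the values were seen. Both intervals treat genes and peaks as independent, which they were not. Mir129-2 and Mir129b shared 5 of the peaks, and Mir9-2 and Gm51268 shared 3. Mir124a-2 and Gm51272 shared 1 peak, as did Mir124a-1 and Mir3078.

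Reads per peak were few. The deposited score of each peak was read as a whole number of reads (1 read for each 2.573 of score). The unit of the score is not stated in the sources used here, so every read count and every interval on reads rests on this reading. The 503 distal peaks had a median of 11 reads (quartiles 10 and 15, range 10 to 1244), and 270 of them (53.7%) held 10 or 11 reads. The 996 peaks of at most 5000 bp that lay 5 to 50 kb from protein-coding genes, under the same lncRNA limit, also had a median of 11 reads (quartiles 10 and 18). The 2145 peaks of at most 5000 bp within 2 kb of a gene end had a median of 18 reads. At least 20 reads were held by 96 distal peaks (19.1%, 15.7 to 22.8), against 22.9% (20.3 to 25.6) at 5 to 50 kb and 46.9% (44.7 to 49.0) at gene ends. Width was part of the rule, and 305 of the distal peaks (60.6%) had the list's shortest width, 500 bp.

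A class of 12 distal peaks stood apart by reads per kb. They exceeded 52.4 reads per kb, which is 2.5 times the median of all 6018 peaks, and are called dense. Of the 24 such peaks in the list, 12 were distal. They held 3981 of the 11832 reads in distal peaks (33.6%). The densest lay together on chromosome 2 (98662257 to 98667502), with 1244 reads in 1126 bp, 734 reads in 875 bp and 181 reads in 500 bp, 1030.6 to 1034.7 kb from the nearest gene, Lrrc4c. On chromosome 9, peaks of 356, 60 and 581 reads lay between 3000996 and 3025901, at the start of the sequence counted as chromosome space. The other 6, with 39 to 351 reads, lay on chromosomes 3, 6, 11, 12, 14 and 18. Whether the input library was equally dense at these positions was not tested.

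**Figure D1:**
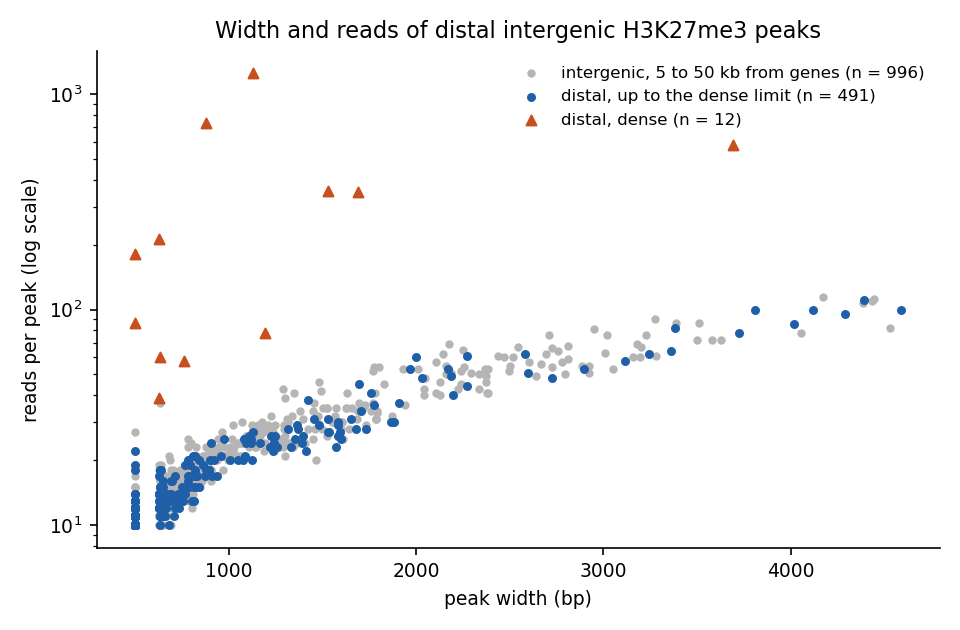
Each point is 1 peak, with its width in bp on the x axis and its reads on a log y axis. Blue points are the 491 distal peaks below the dense limit, orange triangles the 12 dense distal peaks and grey points the 996 intergenic peaks 5 to 50 kb from genes. Reads rise with width along a common band of blue and grey points up to about 111 reads, and the dense peaks lie above it.

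Outside the dense class, the 15 strongest distal peaks lay in 13 different stretches between genes. After the Mir129-2 peak came peaks of 100 reads between Ap3b1 and Tbca (chromosome 13, 94707562 to 94711372) and 100 reads between Irf8 and Foxf1 (chromosome 8, 120894321 to 120898912). A peak of 99 reads lay between Rbm19 and Lhx5 (chromosome 5, 120300350 to 120304470) and one of 95 reads between Foxd1 and Tmem174 (chromosome 13, 98502315 to 98506607). Peaks of 86, 82, 78 and 64 reads followed between Tfap2c and Bmp7, Uncx and Micall2, Sall4 and Zfp64, and Barhl2 and Zfp644. The 111-read peak (91.3 to 133.7) and the 64-read peak (49.3 to 81.7) had intervals that did not overlap, while neighbours in this order had overlapping intervals. Of the 15 strongest peaks outside the dense class, 10 had a developmental transcription factor as 1 of the 2 flanking genes, though it was the nearest gene for 2 of them. That share, 66.7% (38.4 to 88.2), has an interval that includes the 42.1% found over all 503 distal peaks, and such gaps held 8.03% of the distal space. Peaks of 99 reads or fewer were named here after their values were seen.

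Distal peaks gathered in few gaps. A gap is the stretch between 2 neighbouring protein-coding genes, or between a gene and the chromosome end, and 2968 gaps were long enough to hold distal space. Of these, 230 held a distal peak (7.75%). A single distal peak lay in 150 gaps, and 22 gaps held 5 or more, together 206 peaks or 41.0% of the total. Gaps with a distal peak had a median length of 383.0 kb, against 232.5 kb for all gaps with distal space.

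The desert between Irx3 and Irx5 held the most. These Iroquois homeobox genes pattern the neural tube, heart and limb, and lie 556.1 kb apart on chromosome 8 (gap 91801655 to 92357795). The gap held 27 distal peaks with 359 reads in total, a median of 11 and a range of 10 to 31. The first began 62.0 kb from Irx3 and the last ended at 92288764, so they were spread over 425.2 kb. They covered 4.29% of the distal space in the gap, and 17 had another peak within 5 kb. Both flanking genes were marked. A gene is called marked here if any peak touches the window of 2 kb to either side of its annotated ends. The values were 300 reads in 1 peak at Irx3 and 404 reads in 2 peaks at Irx5.

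Beyond Irx5, the gap to Irx6 held 4 distal peaks, the strongest with 40 reads. In the paralogous Irx cluster on chromosome 13, the gaps from Irx1 to Irx2 (660.7 kb) and from Irx2 to Irx4 (625.4 kb) held 0 distal peaks. With 548.7 and 497.4 kb of distal space, each was larger in that respect than the Irx3 to Irx5 gap (421.8 kb). Other peaks, outside the rule, did occur there, 2 with 44 reads and 4 with 144 reads in total. The chromosome 13 gaps were looked up after the chromosome 8 values were seen.

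The gap between Irf8 and Foxf1 on chromosome 8 held 15 distal peaks with 360 reads (median 13, range 10 to 100). Irf8 is a transcription factor of myeloid cells and Foxf1 a forkhead factor of lung and gut mesenchyme. The strongest peaks, with 44, 58, 27 and 100 reads, lay together 126.7 to 137.6 kb from Irf8. The 8 peaks nearer to Foxf1 had 10 to 15 reads. Foxf1 had a peak of 8960 bp with 212 reads at its end, and Irf8 one of 625 bp with 15 reads.

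Between Mn1 and the lens crystallin gene Cryba4 on chromosome 5 lay 15 distal peaks, of which 12 were nearer to Mn1. They were weak, with 171 reads in total, a median of 10 and a highest value of 21. Mn1 was marked with 38 reads in 2 peaks and Cryba4 was not.

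Pou3f1, the POU factor of Schwann cells that have not yet myelinated, bounds a gap of 720.6 kb on chromosome 4 whose other edge is Rragc, a GTPase gene of amino acid sensing. This gap held 13 distal peaks with 252 reads (median 17, range 10 to 41), of which 8 were nearer to Rragc and 5 nearer to Pou3f1. The 5 nearer to Pou3f1 had 11 to 29 reads and lay 177.9 to 297.7 kb from it. Pou3f1 was marked with 27 reads and Rragc was not.

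Between Dysf and Cyp26b1, the gene of an enzyme that degrades retinoic acid, lay 13 distal peaks with 186 reads (median 12, highest 36). They occupied 183.8 kb on chromosome 6, and 6 were nearer to Cyp26b1. Its ends carried 5 peaks with 91 reads, and Dysf, which encodes a membrane repair protein of muscle, had none.

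Another 6 gaps held 9 or 10 distal peaks, and they were named after their values were seen. Between Rbm19 and the LIM homeobox gene Lhx5, 10 peaks with 279 reads included the longest run of distal peaks spaced by no more than 5 kb, 6 peaks over 24987 bp with 207 reads. Between Med13l and Tbx3, 10 peaks with 145 reads were spread over 725.0 kb, and 0 of them had another peak within 5 kb. Between Lhx1 and Mrm1, 9 peaks had 150 reads. Between Tfap2c and Bmp7, 9 peaks had 244 reads, and 7 of them were nearer to Bmp7, a growth factor gene without a peak at its ends.

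The gaps between Wdr11 and Fgfr2 (110 reads) and between Mc2r and Tcf4 (124 reads) also held 9 each. Neither Mc2r nor Tcf4 was marked, and 1 of the peaks there was dense. In the other 10 of the 11 gaps with 9 or more distal peaks, at least 1 flanking gene was marked, and 7 of the 11 had a developmental transcription factor at an edge. Of the 11 gaps with 5 to 8 distal peaks, 4 had a marked flanking gene and 2 a factor. Over all 2968 gaps the shares were 24.0% with a marked flanking gene and 7.51% with a factor. Over the 230 gaps with a distal peak they were 51.7% and 31.3%. For the gaps with 9 or more, the intervals were 58.7 to 99.8% for a marked flank and 30.8 to 89.1% for a factor. The latter includes 31.3%.

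**Figure D2:**
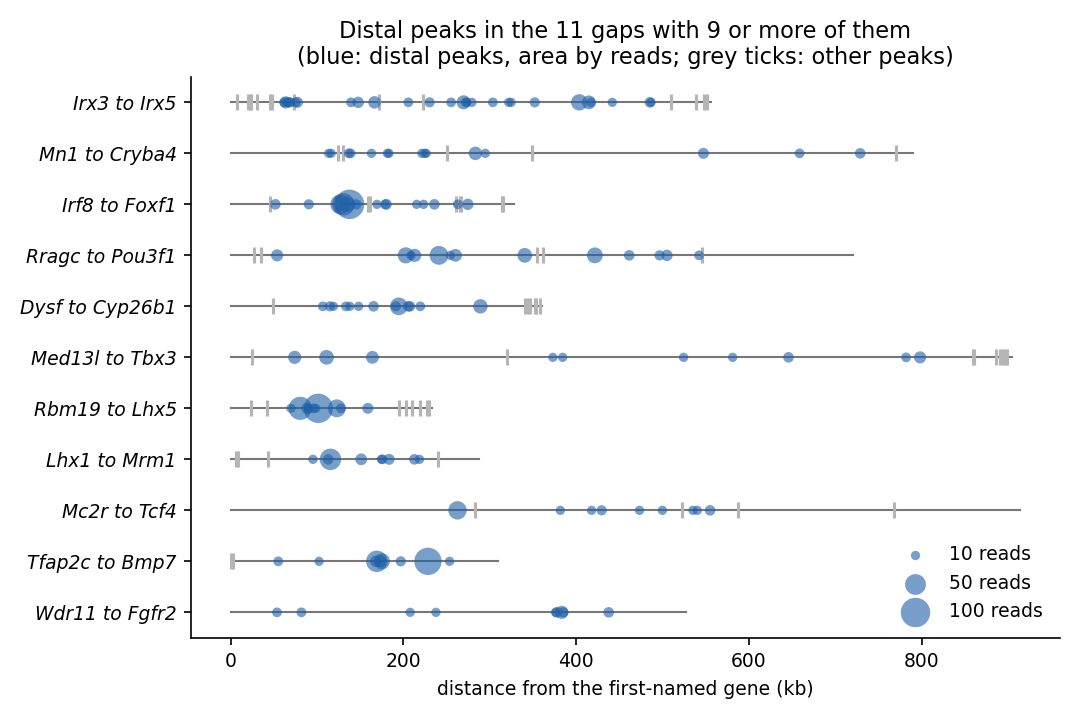
Each line is 1 of the 11 gaps with 9 or more distal peaks, drawn from the end of the first-named gene, with distance in kb on the x axis. Blue circles are distal peaks with area in proportion to reads, and grey ticks are other peaks in the gap. The 27 peaks between Irx3 and Irx5 are small and spread out, while the Irf8 to Foxf1 and Rbm19 to Lhx5 gaps each have a group with peaks of 100 and 99 reads.

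Many distal peaks stood alone at this depth. Another peak of the list lay within 5 kb of 186 of the 503 (37.0%, 32.7 to 41.4). The share was 52.4% (49.3 to 55.5) for intergenic peaks 5 to 50 kb from genes and 49.6% (47.5 to 51.7) for peaks of at most 5000 bp at gene ends. Chained within 5 kb, the distal peaks formed 409 groups, of which 351 had 1 peak and 6 exceeded 10 kb. Broad peaks, those over 5000 bp, were within 200 kb of 118 distal peaks (23.5%, 19.8 to 27.4), whereas 1.29% of the distal space lay that close to one. This was not particular to distal peaks. For intergenic peaks 5 to 50 kb from genes the share was 42.8% (39.7 to 45.9), against 3.535% of their space.

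Peaks became sparser with distance from genes. The distal space held 0.527 peaks per Mb (0.482 to 0.575), against 2.10 (1.97 to 2.24) in the 473.6 Mb that lie 5 to 50 kb from genes, a ratio of 0.251 (0.225 to 0.279). Within the distal space the density was 0.987 per Mb at 50 to 100 kb, 0.752 at 100 to 200 kb, 0.384 at 200 to 500 kb and 0.0324 beyond 500 kb. The last class held 7 peaks, and without dense peaks it held 4.

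Distal peaks were more common where the nearest gene was marked. The nearest protein-coding gene was marked for 197 of 503 distal peaks (39.2%, 34.9 to 43.6), while 8.59% of all 21887 protein-coding genes were marked and 14.97% of the distal space had a marked gene as its nearest. At 50 to 100 kb, density was 2.81 peaks per Mb (2.23 to 3.50) with a marked nearest gene and 0.702 (0.586 to 0.834) with an unmarked one. At 100 to 200 kb the values were 2.30 (1.82 to 2.87) and 0.484 (0.392 to 0.590), and at 200 to 500 kb 0.790 (0.550 to 1.10) and 0.312 (0.247 to 0.390). Beyond 500 kb, 3 peaks lay nearest to a marked gene and 4 to an unmarked one, and their intervals overlapped. The median was 11 reads on both sides. Gene marks and distal peaks come from the same library and share its depth. Counted once per gap, the share with a marked nearest gene was 30.9%.

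**Figure D3:**
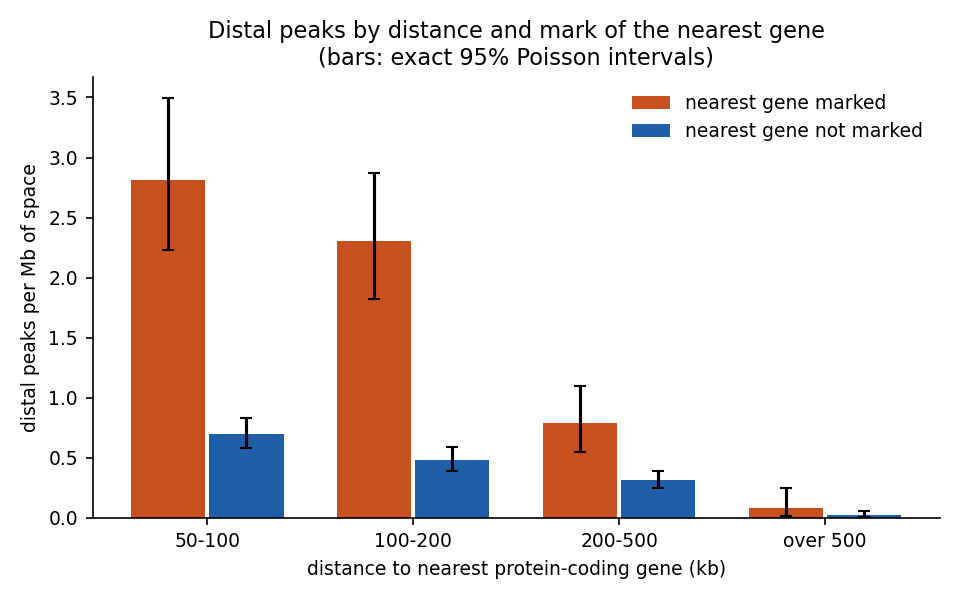
Bars give distal peaks per Mb of distal space (y axis) by distance to the nearest protein-coding gene in kb (x axis), in orange where that gene was marked and in blue where it was not, with exact 95% Poisson intervals. The orange bar is higher in the first 3 distance classes, at 2.81 against 0.702 peaks per Mb at 50 to 100 kb, and the intervals overlap beyond 500 kb.

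Counting both edges of the gap, 325 distal peaks (64.6%, 60.3 to 68.8) lay in gaps with a marked flanking gene, which held 27.4% of the distal space. Density was 0.257 peaks per Mb (0.221 to 0.298) in gaps with no marked flank, 1.12 (0.991 to 1.27) with 1 and 2.44 (1.86 to 3.15) with 2. The last value rests largely on 2 gaps. Of its 59 peaks, 27 lay between Irx3 and Irx5 and 15 between Irf8 and Foxf1. Whether density differs between 1 and 2 marked flanks without these gaps was not tested. The share of gaps with any distal peak was 4.92% of 2255, 17.0% of 647 and 13.6% of 66, and the intervals of the last 2 overlapped. Within gaps that had exactly 1 marked flank, the marked gene was no more often the nearer one than its share of space. It was nearest for 138 of 266 peaks (51.9%, 45.7 to 58.0) and for 50.0% of the distal space in those gaps.

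Genes of developmental transcription factors were the nearest gene for many distal peaks. The union of the factor lists held 342 genes, 1.56% of protein-coding genes, and 4.13% of the distal space was nearest to them. They were the nearest gene for 114 distal peaks (22.7%, 19.1 to 26.6), at 2.89 peaks per Mb (2.39 to 3.48), against 0.425 (0.384 to 0.470) for space nearest to other genes. The 114 peaks belonged to 42 genes, and 109 of the peaks had a marked gene as their nearest. Most genes of the union were marked, 263 of 342 (76.9%), against 8.59% of all protein-coding genes. The results for factors and for marked genes therefore overlap. Counted once per gap, the share with a factor as the nearest gene was 14.8%, and without the Irx3 to Irx5 gap it was 18.3%.

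The homeobox list that holds the Irx genes and Six2 had 35 peaks at 15.1 per Mb (10.6 to 21.1): 16 nearest to Irx3, 13 to Irx5, 4 to Six2 and 2 to Irx6. Without the Irx3 to Irx5 gap it had 8 peaks at 4.24 per Mb (1.83 to 8.34). Neural lineage factors had 34 peaks at 2.68 per Mb (1.85 to 3.74), among them 5 near Pou3f1, 4 near Uncx with 140 reads, 4 near Zfhx3, 3 near Lhx1 with 76 reads and 3 near Lhx5 with 62. Zfhx3 itself was not marked, and its peaks lay 329.4 to 336.2 kb away. Fox genes had 13 peaks, 8 near Foxf1 and 5 near Foxl1. Tbx genes had 7, with 5 near Tbx3 and 2 near Tbx5, the T-box factors of limb and heart.

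Sox genes had 8 peaks over 6 genes, each with 10 to 12 reads, including 2 near Sox14 and 1 near Sox9, 190.6 kb away. Neural crest factors had 9, among them 3 near Msx1 (69 reads), 2 near Tfap2c and 1 near Tfap2b. Mesoderm and endoderm factors had 7, each the only one of its gene, at 0.638 per Mb (0.257 to 1.32), an interval that includes the density of the whole distal space. They included peaks near Gata6 (249.5 kb), Gata3 (721.3 kb), Sall1 (522.2 kb) and Hand1 (52.5 kb).

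Gaps with developmental factors on both sides numbered 8 and held 32 distal peaks at 13.6 per Mb. This value rests on Irx3 to Irx5, and without that gap it was 2.60 (0.843 to 6.06), from 5 peaks in 7 gaps. With a factor on 1 side, 69 of 215 gaps (32.1%, 25.9 to 38.8) held a distal peak, against 158 of 2745 (5.76%, 4.91 to 6.69) with none.

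Other gene groups differed in how many distal peaks lay nearest to them. Cadherin, axon guidance and adhesion genes, many of them long genes beside long deserts, were nearest to 8.90% of the distal space (84.9 Mb), yet to only 4 distal peaks, at 0.0471 per Mb (0.0128 to 0.121). These were single peaks of 10 to 15 reads near Unc5a, Unc5b, Adgrl2 and Cadm1. The lists were not matched for distance from genes. Over all distal space, density fell from 0.987 per Mb at 50 to 100 kb to 0.0324 beyond 500 kb. Whether distance accounts for the low value of this list was not tested. Synapse and transmitter genes, voltage-gated potassium channel genes, and olfactory and vomeronasal receptor genes had 0 each. With 3 counts as the limit for a count of 0, their spaces of 2.86, 5.49 and 5.74 Mb allow up to 1.05, 0.546 and 0.522 peaks per Mb. The first 2 limits lie above the density of the whole distal space, so a lower density was not detectable for those lists. The limit for the receptor genes lies just below it, at 0.522 against 0.527. The exact Poisson interval, as given for the other lists, reaches 0.642 peaks per Mb for the receptor genes and includes 0.527. A lower density was therefore not shown for the receptor genes either.

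Nerve injury and repair genes had 13 distal peaks at 1.53 per Mb (0.815 to 2.62), of which 7 were near Bmp7 (223 reads), 3 near Hmga2 (49 reads), and 1 each near Mycn, Vegfa and Sox11. Hmga2 encodes a chromatin protein of proliferating cells and was marked. The myelin list had 5 peaks, all near Pou3f1. Signalling ligand genes had 8, of which 7 were those near Bmp7 and 1 was 52.8 kb from Wnt4. Zfp genes had 7 at 0.853 per Mb (0.343 to 1.76), an interval that includes the density of the whole distal space. They included the peaks near Zfp644 (4 peaks, 111 reads) and Zfp64 (2 peaks, 89 reads), neither of them marked. The lists overlap, since Bmp7, Pou3f1 and Sox11 each stand in 2 of them.

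**Figure D4:**
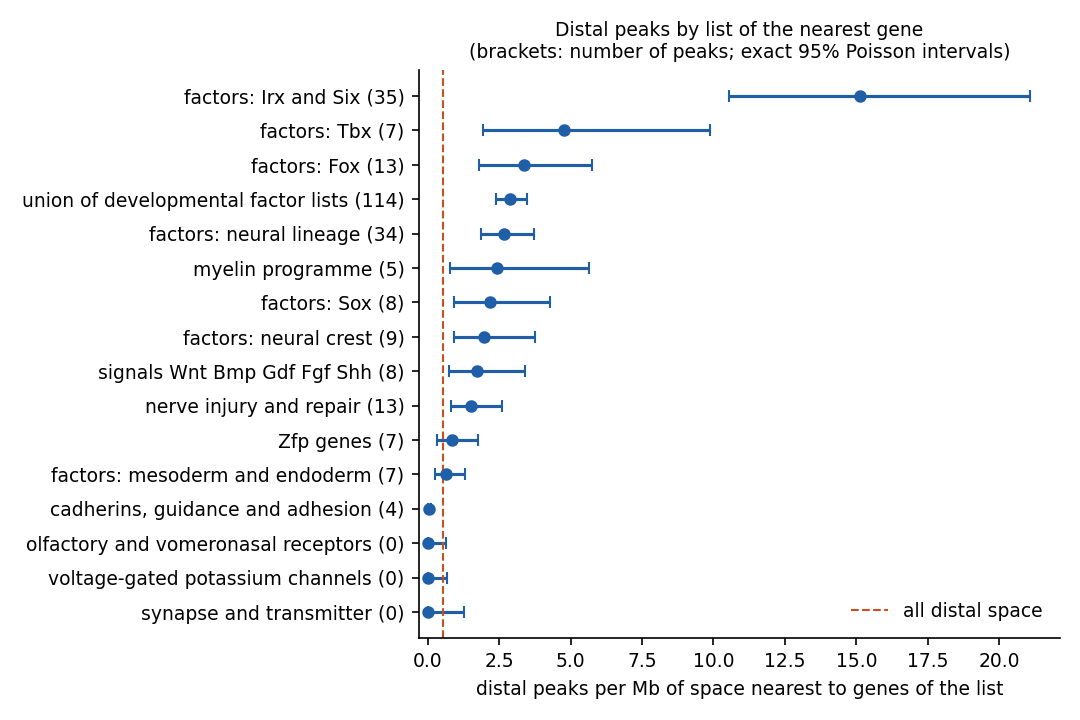
Points give distal peaks per Mb of the space nearest to genes of each list drawn (x axis), with exact 95% Poisson intervals and the number of peaks in brackets. The Hox factor list, with 1 peak at 13.7 per Mb (0.346 to 76.1), is not drawn. The dashed line is the whole distal space at 0.527 per Mb. The list of Irx genes and Six2 lies farthest right of those drawn, at 15.1 (4.24 without the Irx3 to Irx5 gap), and cadherin, guidance and adhesion genes lie left of the line at 0.0471.

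In 2 cases a distal peak overlapped the promoter window of an lncRNA transcript that starts inside its gene body. One, of 775 bp with 15 reads, covered 266 bases of a C130071C03Rik promoter (chr13:83727856-83728155, plus strand), in the lncRNA gene whose body held 5 distal peaks near Mir9-2. The other, of 500 bp with 11 reads, covered 138 bases of a Gm35170 promoter (chr11:117599625-117599924, minus strand), 53.4 kb from Tnrc6c. Promoters of 3 genes that bound peak-rich deserts and carried a peak over the window are printed beside them. These are Irx3 (chr8:91801605-91801904, minus strand, 300 reads), Irf8 (chr8:120736108-120736407, plus strand, 15 reads) and Lhx1 (chr11:84525485-84525784, minus strand, 387 reads). Each runs 5′ to 3′ over 250 bases before and 50 after the start, from RefSeq, assembly GRCm38.p6, with every CG in capitals.
C130071C03Rik: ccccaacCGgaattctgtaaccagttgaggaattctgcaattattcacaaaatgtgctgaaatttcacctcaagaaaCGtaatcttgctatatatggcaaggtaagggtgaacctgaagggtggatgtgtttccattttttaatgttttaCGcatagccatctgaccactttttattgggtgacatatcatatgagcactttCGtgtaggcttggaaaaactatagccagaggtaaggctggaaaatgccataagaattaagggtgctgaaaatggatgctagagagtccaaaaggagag
Gm35170: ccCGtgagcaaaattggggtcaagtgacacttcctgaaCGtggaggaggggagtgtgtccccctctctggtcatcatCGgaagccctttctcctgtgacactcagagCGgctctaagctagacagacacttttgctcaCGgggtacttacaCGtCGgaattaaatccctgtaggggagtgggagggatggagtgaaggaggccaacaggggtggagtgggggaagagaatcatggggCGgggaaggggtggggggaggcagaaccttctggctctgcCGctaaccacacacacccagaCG
Irx3: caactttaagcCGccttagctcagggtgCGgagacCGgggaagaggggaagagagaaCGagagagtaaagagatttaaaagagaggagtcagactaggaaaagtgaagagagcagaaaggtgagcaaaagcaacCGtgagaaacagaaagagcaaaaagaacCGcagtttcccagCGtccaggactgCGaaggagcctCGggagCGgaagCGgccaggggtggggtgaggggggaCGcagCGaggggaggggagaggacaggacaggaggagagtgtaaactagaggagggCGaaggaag
Irf8: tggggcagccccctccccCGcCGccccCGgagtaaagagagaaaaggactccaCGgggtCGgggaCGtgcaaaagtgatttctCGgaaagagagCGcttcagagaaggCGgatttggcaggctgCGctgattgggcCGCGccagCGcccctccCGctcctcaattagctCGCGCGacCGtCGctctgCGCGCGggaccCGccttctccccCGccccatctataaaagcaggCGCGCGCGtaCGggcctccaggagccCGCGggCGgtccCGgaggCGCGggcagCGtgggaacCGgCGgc
Lhx1: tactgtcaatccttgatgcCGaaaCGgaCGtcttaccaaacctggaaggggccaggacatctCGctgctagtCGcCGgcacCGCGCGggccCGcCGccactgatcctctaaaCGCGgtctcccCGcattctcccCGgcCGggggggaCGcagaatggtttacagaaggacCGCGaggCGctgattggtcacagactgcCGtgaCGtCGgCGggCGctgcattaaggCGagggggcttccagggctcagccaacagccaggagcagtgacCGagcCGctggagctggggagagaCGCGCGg
The motif counted was CG, which reads the same on both strands. A CG occurred in 94.6% of the 32851 promoter windows of the table, with a median of 7. The windows over C130071C03Rik and Gm35170 had 4 and 10, against a median of 4 over 11588 lncRNA windows. The printed Irx3, Irf8 and Lhx1 windows had 14, 38 and 31, against a median of 13 over 21263 protein-coding windows. A second Irf8 window (chr8:120738389-120738688, plus strand), not printed, had 8 and 0 peaks over it.

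The lncRNA genes whose bodies held distal peaks numbered 73. Lying in such a body was true of 19.7% of distal peaks and of 9.15% of the distal space. Mir670hg, Gm32611, C130071C03Rik, Irx3os and Gm31432 held 5 distal peaks each, with 168, 86, 74, 62 and 60 reads. Median reads were 11 inside lncRNA bodies and 11 outside them.

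Chromosomes differed in their distal peaks. Over the 19 autosomes the density averaged 0.633 per Mb ± 0.411 (SD over chromosomes, which are not replicates). It was highest on chromosome 8, with 77 peaks at 1.66 per Mb (1.31 to 2.07), where 27 of them lay between Irx3 and Irx5 and 15 between Irf8 and Foxf1. Chromosome 5 followed with 58 peaks at 1.27 per Mb (0.963 to 1.64). Chromosome 16 was lowest among the autosomes, with 4 peaks at 0.115 per Mb (0.0314 to 0.295). The X chromosome had 3 peaks in 74.6 Mb, at 0.0402 per Mb (0.00829 to 0.117), a ratio of 0.0656 to the autosomes together. Intergenic peaks 5 to 50 kb from genes were also few on X, with 3 at 0.0781 per Mb. The mice were male, so the X was present in 1 copy per cell, and the lower dose and a lower level of the mark cannot be told apart from these counts. The Y chromosome had 1 peak of 11 reads in 65.0 Mb. How much of the X and Y space can take reads was not tested.

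**Figure D5:**
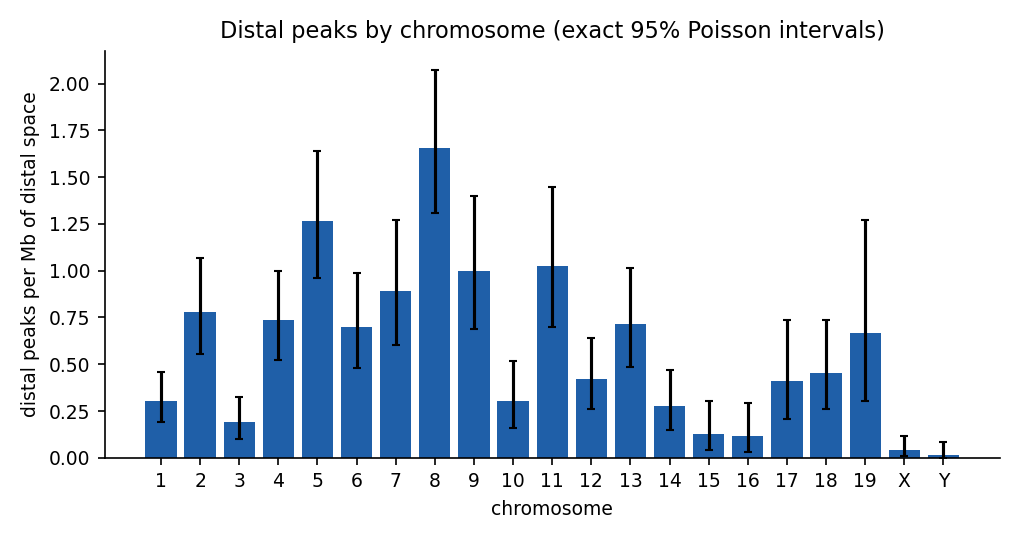
Bars give distal peaks per Mb of distal space (y axis) on each chromosome (x axis) with exact 95% Poisson intervals. Chromosome 8 is highest at 1.66, chromosome 16 is the lowest autosome at 0.115, and X and Y stand at 0.0402 and 0.0154.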

How the data were processed

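The authors' deposited file is 1 list of peaks with a score for each, on build mm10. Bowtie is named in the submitters' processing notes. The Bowtie version, which program called peaks, at what cut-off, and how the input entered were not given in the sources used here. Scores were divided by 2.573 and rounded to reads. Of 6018 scores, 6013 (99.9%) differed by at most 0.05 score units from a whole number of such steps. Peaks held 185225 reads in all, and a 10-read peak was the smallest.

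Genes came from RefSeq, assembly GRCm38.p6 (21887 protein-coding and 12727 lncRNA genes). The table gives no strand, and 108 protein-coding genes placed before the first 3 Mb of an autosome or X could not flank a gap. Spaces were counted exactly, base by base, from 3 Mb (Y: its first gene) to the last gene end. They were not screened for assembly gaps or for sequence on which reads cannot be placed. How far such sequence lowers the densities was not tested. The calculation was checked on 20 simulated genomes against brute force and matched in 20. Python 3.11.15, numpy 2.4.6, pandas 2.3.3 and scipy 1.17.1 were used. Shares carry exact Clopper-Pearson and counts exact Poisson 95% intervals.

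Members, gene lists and settings were chosen with earlier results of these data known. Peaks to name were the 10 with the most reads, those at the distance limit and those in the 5 gaps with the most peaks, together with their flanking genes. Nearest genes in a list (at most 25, by reads) and microRNA genes were also named, and some listed genes beyond 25 were added after their values were seen. GC and CpG content of the peaks needs a genome sequence, which was not used here. Alternatives were distance limits of 25 and 100 kb, a minimum of 20 reads, no predicted gene models, autosomes only, no lncRNA limit, other neighbour and gene-end windows, either flank, and gaps counted once. Removal of dense peaks and of the Irx3 to Irx5 gap was added after the data were seen. A few results on single genes are not reported here.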

Additional observations from a re-analysis of the deposited data

How the results depend on the processing

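Over 13 alternatives, 38 of 55 recomputed values stayed within the counting interval of the reported value (or, for the number of peaks, within 1.5 times). The number of distal peaks, 503, was 295 beyond 100 kb, 798 beyond 25 kb and 96 among peaks of at least 20 reads. The density ratio to the nearer intergenic space, 0.251, was 0.291 with the 25 kb limit, 0.209 with peaks of at least 20 reads and 0.225 without predicted gene models. With peaks of at least 20 reads the median was 29 reads, 26.0% had a neighbour within 5 kb, 27.1% had a marked nearest gene and 18.8% a developmental factor. That setting removes weak peaks from gene ends and neighbours as well. With gene marks from all peaks kept, a marked gene was nearest for 33.3% (24.0 to 43.7) of those 96. For distal peaks of 10 or 11 reads it was 41.1% (35.2 to 47.2). The share with a neighbour was 24.9% within 2 kb and 54.1% within 20 kb. A marked gene was nearest or flanking for 64.6% when either flank counted. It was nearest for 30.9% when gaps were counted once, by the peak with the most reads. For developmental factors these were 42.1% and 14.8%, and 18.3% without the Irx3 to Irx5 gap. Removing dense peaks moved none of the 6 results beyond its interval. No paired analysis was possible because there is 1 ChIP library. Leaving out a replicate was not possible either. Depth limits single peaks: a peak of 11 reads has an interval of 5.49 to 19.7 reads.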

Other observations

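The 7 distal peaks beyond 500 kb from any protein-coding gene included 4 outside the dense class. A peak of 22 reads in 500 bp lay 788.9 kb from Ddx18, in the gap to Dpp10 on chromosome 1. Single peaks of 10 reads lay 721.3 kb from Gata3, 623.6 kb from Kirrel3 in the gap from Ets1, and 522.2 kb from Sall1 in the gap to Tox3. A peak of 60 reads over 2000 bp lay 89.4 kb from Dio3 in the gap from Rtl1, 2 genes of an imprinted region on chromosome 12.

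Among other gaps with a developmental factor on both sides, the gap from Pax1 to Foxa2 (667.8 kb, of which 525.1 kb was distal space) held 0 distal peaks, though 4 other peaks with 167 reads in total lay in it. The gaps from Nkx2-2 to Pax1 and from Foxf2 to Foxc1 also held 0, but had only 54.5 and 75.2 kb of distal space. These gaps were looked up after the Irx values were seen, and the difference between gaps was not tested.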
